A study of Komagataella pastoris with 60 samples.

Results

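The genes described here are the 150 host genes of Pichia pastoris whose transcripts fell most with time in the wild-type (wt) strain. They are 150 of the 4769 genes that reached a mean of 10 counts per 1000000 host reads (CPM) over the 6 wt mRNA libraries and that are not among the 86 ribosomal protein (RP) genes listed by the study. The files list 5319 host genes in all. Members were ranked by the log2 ratio of the mean CPM at 72 h to that at 24 h in wt mRNA, with 1 added to each mean, and the 150 lowest were taken. The members were thus chosen by wt mRNA values at 24 and 72 h. Those values are given below only as a description. The change over time in the deletion strains and the values in RNC-mRNA did not enter the rule.

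The study compared 5 strains, namely rpl38∆, rpl9a∆, rps7∆, rps25∆ and wt. All are derivatives of GS115, labelled Komagataella pastoris, that carry a single copy of a phytase (Phy) gene under the methanol-inducible AOX1 promoter, and each deletion strain lacks 1 RP gene of the large (rpl) or small (rps) ribosomal subunit. Cultures grew at 30 °C in methanol medium and were sampled at 24, 48 and 72 h with 2 biological replicates. After cycloheximide, which holds ribosomes on their transcripts, each sample gave total polyA+ mRNA and RNC-mRNA, the mRNA recovered with ribosome-nascent chain complexes through a sucrose cushion, so there were 30 libraries of each assay. The 2 assays of a strain share their cultures, so the wt RNC-mRNA values are not fully independent of the rule. The sources used here do not say how many clones stood behind a strain.

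Ribosomal proteins, together with ribosomal RNA, form the ribosome, which reads mRNA to make protein. In the yeast Saccharomyces cerevisiae the transcripts of RP genes and of ribosome assembly factors are known to fall together when growth slows. Levels in total mRNA reflect synthesis and decay of a transcript, and levels in RNC-mRNA reflect how much of it was bound by ribosomes. In bulk RNA of a culture, less transcript per cell and fewer cells with the transcript cannot be told apart. None of the 5319 gene IDs could be paired with a gene name here, apart from the RP genes and the 55 chaperone genes (helpers of protein folding) that the study lists. The members are therefore described by ID for 5 genes and otherwise by their rank, where rank 1 fell most in wt.

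Host reads per library were 2970406 to 15476958 in mRNA and 1508702 to 13532265 in RNC-mRNA. Transcripts of the deleted genes were lower in every library of their own strain than in any other, with at most 2.08 against at least 3.09 CPM for RPL38, 9.42 against 48.5 CPM for RPL9A, 15.2 against 54.6 CPM for RPS7 and 2.46 against 43.2 CPM for RPS25. For 28 of 30 mRNA libraries and 25 of 30 RNC-mRNA libraries, the library with the closest profile was its own replicate, by the correlation of deviations from the mean over 4769 genes. Both rpl9a∆ mRNA libraries at 48 h were exceptions (r = 0.23 with each other), as were both rpl9a∆ RNC-mRNA libraries at 48 h (r = 0.22) and at 72 h (r = -0.19). Replicate 2 of rpl9a∆ RNC-mRNA at 72 h was closest to rpl9a∆ RNC-mRNA at 48 h, replicate 1 (r = 0.54). The fifth RNC-mRNA exception, rpl38∆ at 72 h, replicate 2, resembled rpl9a∆ at 72 h, replicate 1 (r = 0.91) a little more than its own replicate (r = 0.84).

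In those rpl9a∆ libraries the members themselves were apart. The median log2 level of the 150 genes (TMM-scaled CPM with 1 added, where TMM is a scaling for library composition) was 7.55 in replicate 1 and 6.55 in replicate 2 of mRNA at 48 h, and 5.56 in replicate 1 and 7.36 in replicate 2 of RNC-mRNA at 72 h. The summed share of the RP genes stood apart in the same libraries, at 2.74% and 10.2% of host reads in RNC-mRNA at 72 h. Because all groups of an assay share 1 estimate of the spread, the main counts are given with all libraries and again without these 5 rpl9a∆ libraries (both replicates at 48 h in each assay, and replicate 2 of RNC-mRNA at 72 h), an alternative chosen after the data were seen. The typical coefficient of variation between replicates was 10.8% in mRNA and 20.9% in RNC-mRNA with all libraries, and 6.35% and 13.5% without them. In that alternative the rpl9a∆ RNC-mRNA values at 72 h rest on replicate 1 alone. What set these libraries apart was not tested, so what the rpl9a∆ values at 48 h, and at 72 h in RNC-mRNA, stand for is uncertain. Counts given below with a single library left out have no share of all genes beside them. They only show how far a count depends on that library.

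In wt mRNA the steepest member, rank 1, had a mean of 71.1 CPM at 72 h and 792 CPM at 24 h (log2 ratio -3.46), and rank 2 had 114 and 503 CPM (log2 ratio -2.13). The ratio flattened quickly after these: 26 members lay below -1, and the median was -0.78. The last member, rank 150, had 197 CPM at 72 h and 304 CPM at 24 h (-0.62), and the first gene left out, rank 151, had 96.5 and 148 CPM (-0.62), so the edge of the set is not a gap in the data. Both 72 h libraries were below both 24 h libraries for all 150 members. The rule largely set this in advance and it was not counted over all genes, so it is no support for the fall. At 48 h, 121 members had a mean between those at 24 and 72 h, 19 were at or above their 24 h level and 10 were at or below their 72 h level. For comparison, the median ratio was 0.19 over the 4769 genes, -0.59 over the 86 RP genes and -0.03 over the 55 chaperone genes, and 40 RP genes had ratios at or below that of rank 150. Of the chaperone genes, 1 is a member.

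The members had a median listed length of 1595 bases (quartiles 1058 and 2139.5), against 1244 bases (815 and 1853) over the 4769 genes, and 94 of 150 were longer than that median. Their level per length in wt mRNA was ordinary, with a median of 65.6 RPKM (reads scaled by gene length and library total) against 60.3 RPKM, and spanned 7.99 to 4059 RPKM. By the scaffold in their IDs, 37 lay on chr1, 42 on chr2, 35 on chr3 and 34 on chr4, and 1 each on FragB and c121. On chr1 to chr4 these were 24.7%, 28.0%, 23.3% and 22.7% of the members, against 28.2%, 25.9%, 24.0% and 18.6% of the 4769 genes. Among the members 3 pairs had consecutive ID numbers, which was not counted over the 4769 genes.

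Most of the falling genes also fell in the 2 large-subunit deletants, whereas in the 2 small-subunit deletants fewer did with all libraries in the fit. In mRNA, 113 of 150 members were lower at 72 h than at 24 h in rpl38∆, where 34.1% of all 5228 genes tested were lower, and 18 were higher (36.2% of all). In rpl9a∆, 108 members were lower (37.3% of all) and 25 were higher (39.2% of all). In rps7∆, 49 members were lower (30.9% of all) and 27 were higher (29.2% of all). In rps25∆, 23 members were lower (21.9% of all) and 25 were higher (22.0% of all). These calls came from edgeR's quasi-likelihood test with p-values adjusted over all genes and a threshold of 0.05. The median log2 fold change of the members for rpl38∆ was -1.07 (quartiles -1.71 and -0.40), for rpl9a∆ -1.39 (-2.57 and -0.20), for rps7∆ -0.31 (-0.80 and 0.23) and for rps25∆ -0.09 (-0.36 and 0.17), beside medians of 0.03, 0.04, 0.00 and -0.01 over all genes tested.

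More members passed the test in the small-subunit deletants without the 5 rpl9a∆ libraries. Then 78 members were lower in rps7∆ (35.2% of all genes) and 50 in rps25∆ (29.1% of all), with 37 (33.5% of all) and 34 (28.7% of all) higher. In rpl38∆ 117 were then lower (36.3% of all) and 20 higher (38.7% of all), and in rpl9a∆ 112 lower (39.3% of all) and 27 higher (41.1% of all).

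With each library scaled by its total reads alone, all genes moved together, and the median of all genes shifted by between -0.04 and 0.76 on the log2 scale relative to TMM, in the 72 h over 24 h comparisons of both assays. Such a change moves all genes of a comparison by nearly the same amount, so the distance of the members from that median could hardly change. The members' median minus the median of all genes was -1.10 in rpl38∆ mRNA, -1.43 in rpl9a∆, -0.31 in rps7∆ and -0.08 in rps25∆ under either scaling. In rps7∆ the members' own median was 0.11 with library totals, where that of all genes was 0.42, and 30 members were lower (18% of all genes) and 57 higher (54.3% of all). Comparing the scalings is therefore no test of the position of the members below the median gene. The sign of the members' change in rps7∆ depends on which scaling is used.

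**Figure D1:**
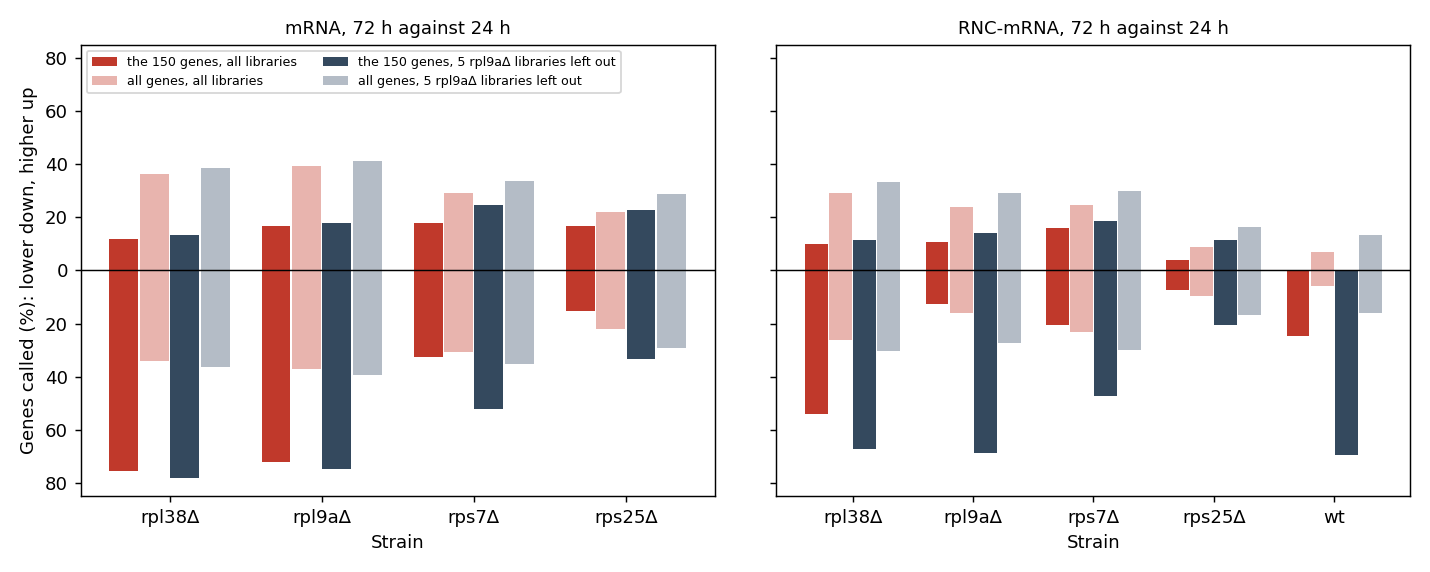
Percent of genes called higher (above 0) or lower (below 0) at 72 h than at 24 h in each strain, for mRNA (left) and RNC-mRNA (right), with 2 libraries per time. Red and pale red bars are the 150 genes and all genes tested with all libraries, and dark and pale blue-grey bars the same without 5 rpl9a∆ libraries. In rpl9a∆ RNC-mRNA the blue-grey bars rest on replicate 1 alone at 72 h. In rpl38∆ and rpl9a∆ mRNA 75.3% and 72.0% of the 150 were lower, more than 2 in 3 in either fit, and in wt RNC-mRNA none was higher. With library totals alone as the scaling, all genes in rps7∆ mRNA shifted up together, and the members had 30 lower and 57 higher. Such a shift leaves the members' median 0.31 below that of all genes.

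The RP genes, which the rule left out, had a lower median change than the members in all 4 strains. In mRNA 85 of 86 RP genes were lower at 72 h in rpl38∆, in rpl9a∆ and in rps7∆, with median log2 fold changes of -2.29, -3.41 and -2.61, and 25 of 86 were lower in rps25∆ (-0.41). The gap was widest in rps7∆, where the members' median was -0.31. Of the 55 chaperone genes, those lower numbered 34 (rpl38∆), 39 (rpl9a∆), 28 (rps7∆) and 5 (rps25∆), and those higher 9, 6, 2 and 18. In rps25∆ more chaperone genes were thus higher than lower, with a median log2 fold change of 0.14.

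Gene by gene, 87 members (58.0%, against 29.4% of all genes tested) were lower in at least 2 deletion strains and higher in none. Another 15 (10%, against 30% of all) were higher in at least 2 and lower in none, and 36 (24.0%, against 22.0% of all) were lower in 1 or more and higher in another. In all, 98 members (65.3%, against 27.9% of all) were lower in both rpl38∆ and rpl9a∆. Those lower in all 4 strains were 8 (ranks 8, 34, 64, 70, 99, 116, 127 and 134), which is 5.33% of the members and 6.83% of all genes, 3 (2.0%, against 6.24% of all) were higher in all 4 (ranks 5, 9 and 125), and 2 (1.33%, against 4.99% of all) passed the test in none. Without the 5 rpl9a∆ libraries the members lower in at least 2 and higher in none numbered 79 (28.2% of all genes), those lower in all 4 numbered 29 (10.2% of all) those called in both directions numbered 53 (29.8% of all) and those lower in both large-subunit deletants numbered 105 (30% of all). The mRNA change from 24 to 72 h differed among the 4 deletion strains for 143 of 150 members by a test on 3 degrees of freedom, where 83.0% of all genes did.

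Not all members with a deep fall in wt were lower in each deletant. Of the 26 members with a ratio below -1 in wt, 17 were lower and 7 higher in rpl38∆, 13 were lower and 10 higher in rpl9a∆, 9 were lower and 6 higher in rps7∆, and 9 were lower and 3 higher in rps25∆. Among the other 124 members, 96, 95, 40 and 14 were lower in the same order of strains, and 11, 15, 21 and 22 were higher. In rpl9a∆ the median log2 fold change was -0.27 over the 26 and -1.42 over the 124. In rpl38∆ the medians were alike, at -1.09 and -1.07. The small-subunit deletants went the other way, with -0.49 and -0.26 in rps7∆ and -0.38 and -0.04 in rps25∆. The 26 were set apart by the ratio that chose the members, and their counts were not compared with all genes. Over the 150 members the log2 fold changes of the 2 large-subunit deletants correlated at r = 0.80 (133 with the same sign), those of rpl38∆ and rps7∆ at 0.60, and those of rpl9a∆ and rps25∆ at -0.03. These are descriptions over genes, which are not independent, of strains with no libraries in common.

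**Figure D2:**
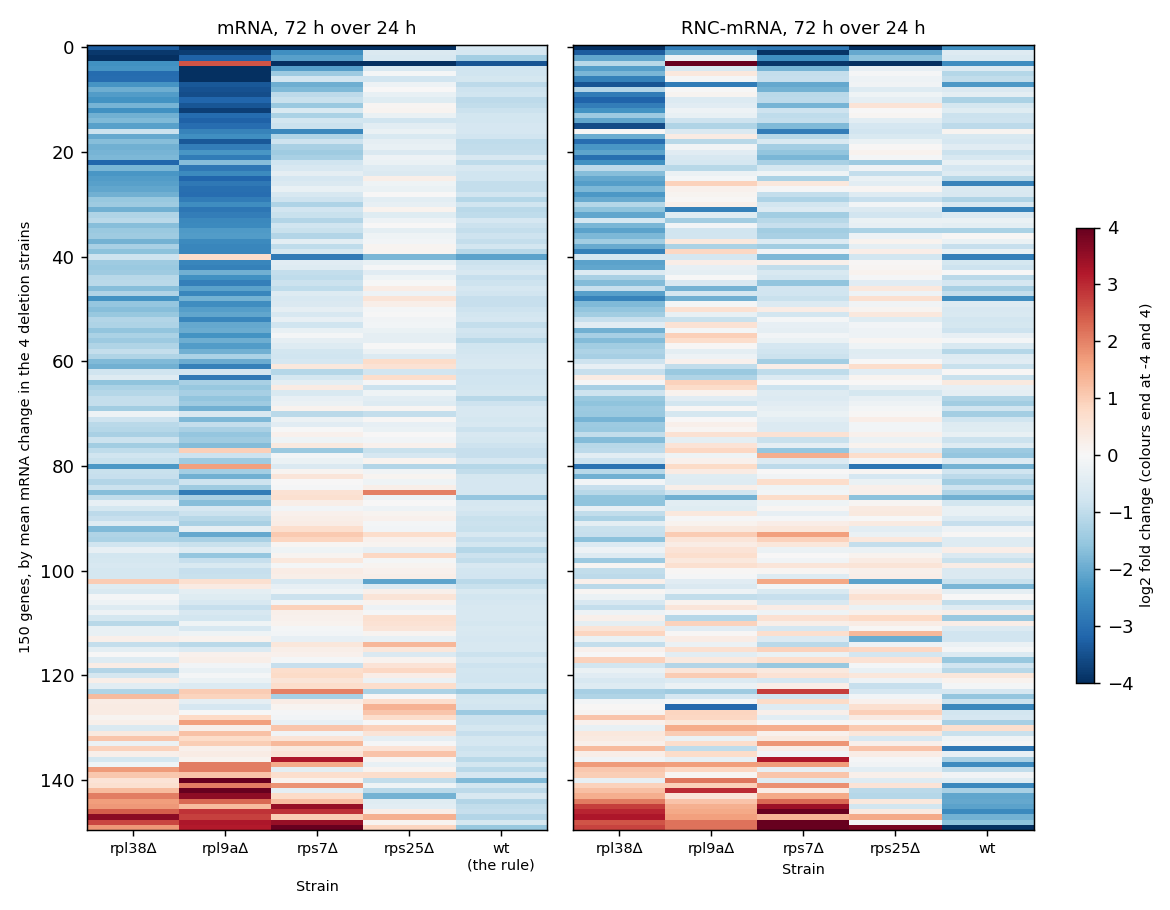
Log2 fold change at 72 h over 24 h of the 150 genes (rows, ordered by their mean mRNA change in the 4 deletion strains, lowest at the top) in mRNA (left) and RNC-mRNA (right), by strain. Blue is lower and red higher at 72 h. The wt mRNA column is the ratio that chose the genes, in CPM, and the other columns are TMM-scaled fits. Low mRNA values in the upper rows follow from this order. Of the 113 genes lower in rpl38∆ and the 108 lower in rpl9a∆, 98 were lower in both. The median mRNA change of the 150 genes was -1.07 in rpl38∆, -1.39 in rpl9a∆ and -0.09 in rps25∆. The rpl9a∆ RNC-mRNA column averages 2 replicates that stood apart (median log2 level 5.56 and 7.36).

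Pooled over the 24 mRNA libraries of the deletion strains, the level of most members correlated positively with that of the RP genes. The Pearson correlation between a member's log2 level and the median log2 level of the RP genes had a median of 0.65 over the members and -0.04 over the 4769 genes. It was above 0.8 for 47 members (31.3%, against 5.98% of the 4769 genes) and below 0 for 24 (16%, against 51.7%), and ranged from -0.86 to 0.94. The 87 members that were lower in at least 2 strains and higher in none had a median of 0.82, and the 15 of the opposite class had -0.52. These classes were made from changes in the same libraries, where RP genes fell as well. The signs of their medians were thus largely set in advance. These correlations are descriptions over libraries that share strains and times.

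In the deletants the course between 24 and 72 h differed by strain. The means at 24, 48 and 72 h were in falling order for 100 (rpl38∆), 93 (rpl9a∆), 53 (rps7∆) and 16 (rps25∆) members, against 123 in wt on the same TMM scale. In rps25∆ 89 members had their lowest mean at 48 h. These orders were not counted over all genes, so the counts only describe the members. The wt count follows largely from the rule, and the rpl9a∆ count rests on 48 h replicates that stood apart. By test, a comparison added after the data were seen, 91 members were lower at 48 h than at 24 h in rpl38∆ (32.1% of all genes) and 20 higher (32.3% of all), and 109 were lower without the 5 rpl9a∆ libraries (35.1% of all). In rpl9a∆ 58 were lower (26.9% of all) and 22 higher (32.6% of all), and this rested on the replicates that stood apart, since without replicate 1 at 48 h 113 were lower, and without replicate 2 at 48 h 39 were higher. In rps7∆ 50 were lower (27.7% of all) and 9 higher (27.6% of all), with a median of -0.23 that was 0.34 with library totals alone. There 72 were lower (32.0% of all) and 25 higher (34.1% of all) without the 5 rpl9a∆ libraries, and 5 were higher without replicate 2 at 24 h. In rps25∆ 37 were lower (22.4% of all) and 25 higher (20% of all), 83 were lower without the 5 rpl9a∆ libraries (29.8% of all), and 15 to 24 when any 1 of the 4 libraries compared was left out.

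With library totals alone, the counts lower at 48 h than at 24 h were 58 (rpl38∆), 29 (rpl9a∆), 21 (rps7∆) and 47 (rps25∆), against 19.7%, 12.0%, 11.1% and 23.3% of all genes. Those higher were 27, 41, 65 and 24, against 50.9%, 58.8%, 68.3% and 17.7% of all genes. The median of all genes was then 0.38, 0.52, 0.61 and -0.06. The members' median minus that of all genes was -0.59 in rpl38∆ and -0.27 in rps7∆ under both scalings. It was -0.25 with TMM and -0.26 with library totals in rps25∆, and -0.47 and -0.48 in rpl9a∆. A change of scaling moves all genes together, so the likeness of these values between scalings was set in advance.

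Against wt at 48 h, a time that entered the rule only through the CPM minimum, 50 members were lower in rpl38∆ (31.8% of all genes) and 32 higher (29.3% of all), and without the 5 rpl9a∆ libraries 68 (35.5% of all) and 47 (33.5% of all). In rpl9a∆ 25 were lower (19.1% of all) and 45 higher (22.5% of all), and both counts rested on single libraries. Without replicate 1 of rpl9a∆ at 48 h 78 were lower and 21 higher, without its replicate 2 85 were higher, and without replicate 1 or 2 of wt 20 and 24 were higher. In rps7∆ 62 were lower (32.2% of all) and 19 higher (34.7% of all), with a median log2 fold change of -0.39, and without the 5 rpl9a∆ libraries 85 (36.5% of all) and 33 (39.2% of all). With library totals alone the median was 0.32, beside 0.77 over all genes, with 35 lower (12.0% of all) and 66 higher (70.6% of all). The members were 0.44 below the median gene under either scaling, since a change of scaling moves all genes together. In rps25∆ 35 were lower (28.2% of all) and 33 higher (25% of all). Without the 5 rpl9a∆ libraries these were 47 (32.8% of all) and 57 (29.8% of all). Library totals alone gave 39 lower (24.5% of all) and 43 higher (37.2% of all) in rpl38∆ and 29 lower (17.6% of all) and 56 higher (36.2% of all) in rps25∆.

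The ratios to wt at 24 and 72 h are a description only, since the rule took genes with high wt values at 24 h and low wt values at 72 h, which by itself lowers the ratio at 24 h and raises it at 72 h. At 24 h the median log2 ratio of the members to wt was -0.70 in rps7∆, where 126 members were below wt, -0.18 in rps25∆, -0.05 in rpl38∆ and 0.10 in rpl9a∆. At 72 h it was 0.69 in rps25∆, where 22 members were below wt, 0.05 in rps7∆, -0.15 in rpl38∆ and -0.31 in rpl9a∆.

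In the ribosome-bound pool, with all libraries, members were lower at 72 h more often than all genes in wt and rpl38∆ only. In rpl9a∆, rps7∆ and rps25∆ 12.7%, 20.7% and 7.3% of the members were lower, against 16.2%, 23.2% and 9.54% of all genes. In RNC-mRNA of wt, 37 members were lower at 72 h than at 24 h (5.84% of all 5209 genes tested), and none was higher (7.01% of all). With edgeR's unadjusted p under 0.05 there were 56 lower and 0 higher, and DESeq2 gave 0 higher. The median log2 fold change was -0.69, and 137 members had a value below 0. Without the 5 rpl9a∆ libraries 104 were lower (16.2% of all) and 0 higher, and leaving out any 1 of the 4 wt libraries compared gave 18 to 20. These wt libraries share the cultures that chose the members.

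In rpl38∆ RNC-mRNA, 81 members were lower (26.3% of all) and 15 higher (29.0% of all), with a median of -1.05. Without replicate 1 at 72 h 47 were lower, and without the 5 rpl9a∆ libraries 101 (30.3% of all). In rpl9a∆, 19 were lower (16.2% of all) and 16 higher (24.0% of all), with a median of -0.04. Those counts turned on single libraries, in fits whose shares of all genes were not counted. Without replicate 2 at 72 h 97 were lower, without replicate 1 at 72 h 49 were higher, and without replicate 1 at 24 h 3 were higher. Without all 5 rpl9a∆ libraries the median was -1.14, a value that rests on replicate 1 alone at 72 h. In rps7∆, 31 were lower (23.2% of all) and 24 higher (24.6% of all), with a median of -0.43 that was 0.32 with library totals alone. There 71 were lower without the 5 rpl9a∆ libraries (29.8% of all) and 15 without replicate 2 at 72 h, and 12 were higher without replicate 2 at 24 h and 13 without replicate 1 at 72 h. In rps25∆, 11 were lower (9.54% of all) and 6 higher (8.70% of all), with a median of -0.09 that was 0.03 with library totals alone, and 31 were lower (16.9% of all) and 17 higher (16.2% of all) without the 5 rpl9a∆ libraries. Without either replicate at 24 h 3 were higher in rps25∆.

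Scaled by library totals alone, RNC-mRNA had 60 members lower (17% of all genes) and 22 higher (45.1% of all) in rpl38∆, 14 lower (7.91% of all) and 33 higher (44.7% of all) in rpl9a∆, 10 lower (10.7% of all) and 47 higher (57.5% of all) in rps7∆, and 9 lower (7.81% of all) and 9 higher (11.6% of all) in rps25∆. The members' median minus that of all genes was -1.12 in rpl38∆, -0.50 in rps7∆ and -0.09 in rps25∆ under both scalings, and -0.20 with TMM and -0.25 with library totals in rpl9a∆. As in mRNA, a shift common to all genes leaves such distances nearly unchanged.

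Of the members lower in mRNA, 67.3% in rpl38∆ (76 of 113), 14.8% in rpl9a∆ (16 of 108), 51.0% in rps7∆ (25 of 49) and 26.1% in rps25∆ (6 of 23) were also lower in RNC-mRNA. Of all genes lower in mRNA the shares were 62.7%, 33.7%, 65.5% and 32.3%. Without the 5 rpl9a∆ libraries the members' shares were 82.1% (96 of 117) in rpl38∆, 76.9% (60 of 78) in rps7∆ and 42.0% (21 of 50) in rps25∆. Beside these stood 68.6%, 72.0% and 40.9% of all genes. The rpl9a∆ RNC-mRNA values at 72 h then rested on a single replicate, so no share is given for that strain. Members called in opposite directions in the 2 assays numbered 4, 1, 1 and 0 with all libraries. Without the 5 rpl9a∆ libraries they numbered 4 in rpl38∆, 6 in rps7∆ and 2 in rps25∆. Opposite calls were not counted over all genes, so these numbers only describe the members.

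The translation ratio, the level in RNC-mRNA over that in mRNA, was tested as an interaction over all 60 libraries. From 24 to 72 h it changed for 16 members in rpl38∆ (19.2% of all 5240 genes tested), 3 lower (6.83% of all) and 13 higher (12.3% of all). In rps7∆ it changed for 4 (7.25% of all), 1 lower (2.21% of all) and 3 higher (5.04% of all), and in rps25∆ for 10 (4.60% of all), 8 lower (3.21% of all) and 2 higher (1.39% of all). In rpl9a∆ it changed for 96 (35.5% of all), 13 lower (13.4% of all) and 83 higher (22.1% of all). Without replicate 2 of RNC-mRNA at 72 h it changed for 22, 8 lower and 14 higher, and without replicate 1 of RNC-mRNA at 72 h 30 were lower. Without the 5 rpl9a∆ libraries the counts were 55 in rpl38∆ (34.8% of all), 36 in rps7∆ (21.7% of all) and 31 in rps25∆ (16.6% of all). The median change was then -0.03, -0.07 and 0.03 in these strains. In rpl9a∆ it was 0.19, with replicate 1 of RNC-mRNA alone at 72 h. The counts in rps25∆ were 4 to 7 with any 1 of its 8 libraries left out. Those in rps7∆ were 2 to 6, and 2 without RNC-mRNA replicate 2 at 24 h, either RNC-mRNA replicate at 72 h or mRNA replicate 2 at 72 h, and that in rpl38∆ was 8 without replicate 2 of RNC-mRNA at 72 h.

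As a level, the median log2 of RNC-mRNA over mRNA of the members in wt was -0.20, -0.28 and 0.00 at 24, 48 and 72 h, against -0.55, -0.55 and -0.60 over the 4769 genes. In rps25∆ it was -0.10, -0.21 and -0.10, against -0.51, -0.47 and -0.48. In rpl38∆ (-0.47, -0.53 and -0.50) and rps7∆ (-0.45, -0.46 and -0.44) the members lay closer to the 4769 genes (-0.58, -0.52 and -0.54, and -0.60, -0.51 and -0.49). In rpl9a∆ the medians at 24 and 48 h were -0.62 and -0.50, and that at 72 h, 0.79, includes the replicate that stood apart. These ratios compare 2 separately scaled assays and were not tested as levels. In wt the rule favours high mRNA values at 24 h and low ones at 72 h. By itself this lowers the wt ratio at 24 h and raises it at 72 h, so the wt values are a description only.

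As a sum, the 150 genes behaved otherwise than gene by gene. In wt mRNA they took 6.97% and 6.73% of host reads in the 24 h replicates, 5.47% and 5.37% at 48 h, and 3.86% and 3.76% at 72 h. In rpl38∆ mRNA the sum was 6.16% and 6.22% at 24 h, 6.10% and 5.97% at 48 h, and 5.16% and 5.30% at 72 h. It was thus lower at 72 h than at 24 h, by a net change of -0.96 percentage points. In rpl9a∆ it was 6.10% in both replicates at 24 h, 6.02% and 5.89% at 48 h, and 6.07% and 6.34% at 72 h.

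In rps7∆ mRNA the sum was 4.37% and 4.24% at 24 h, 4.28% and 4.22% at 48 h, and 8.83% and 8.92% at 72 h. In rps25∆ it was 5.54% and 5.52% at 24 h, 8.93% and 9.40% at 48 h, and 4.94% and 4.93% at 72 h. The summed shares in rps7∆ at 72 h and in rps25∆ at 48 h stood above those of the other mRNA groups. RNC-mRNA of the same cultures had its highest sums at the same points, 12.3% and 11.2% in rps7∆ at 72 h and 9.92% and 10.2% in rps25∆ at 48 h, against 4.09% and 4.15% in wt at 72 h and 5.52% and 5.37% in wt at 48 h.

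**Figure D3:**
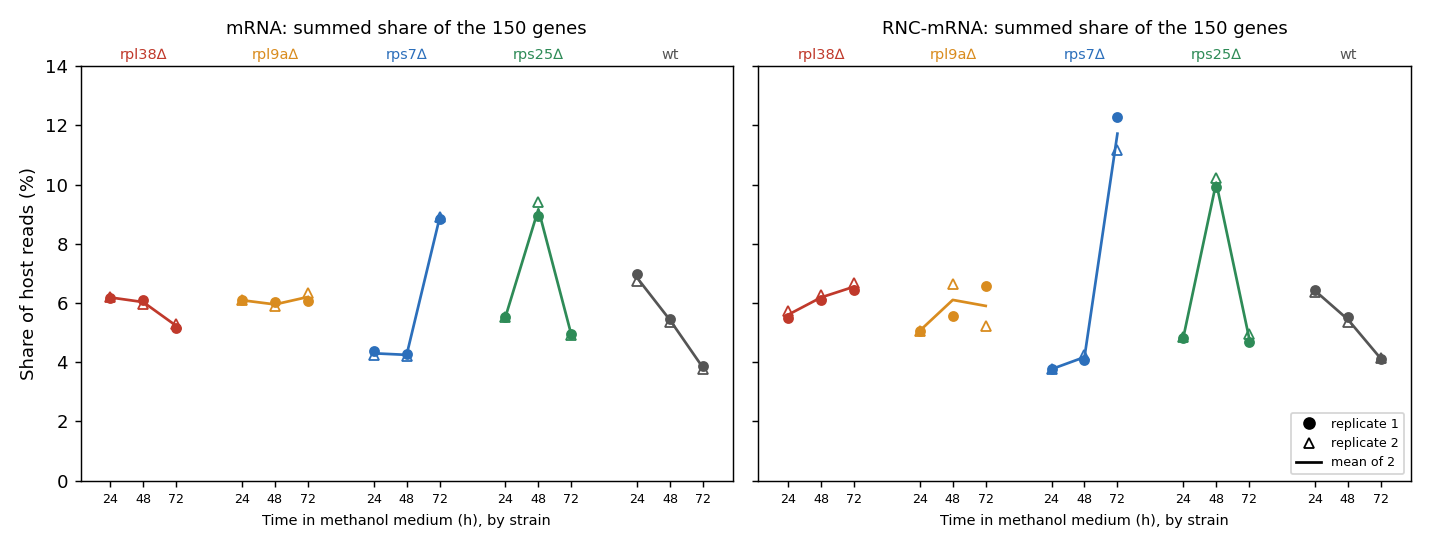
Summed share of host reads (%) taken by the 150 genes in each library, in mRNA (left) and RNC-mRNA (right), by strain and time, with 2 replicates (symbols) and their mean (line). In wt mRNA the share was 6.97% and 6.73% at 24 h and 3.86% and 3.76% at 72 h, and rps7∆ at 72 h and rps25∆ at 48 h stand above the other groups in both assays.

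A few members carried these sums. In rps7∆ mRNA at 72 h the members that gained took 5.70 percentage points of host reads more than at 24 h, of which 5 genes took 4.62 points, and those that lost gave up 1.13 points, a net of 4.57 points. The gene of rank 17 alone gained 2.40 points there, and 2.40 of the net 3.64 points in rps25∆ mRNA at 48 h. In RNC-mRNA it gained 4.50 points in rps7∆ at 72 h and 3.69 points in rps25∆ at 48 h. Without the 5 most abundant members of each group, the share in rps7∆ mRNA was 3.29%, 3.01% and 3.64% at 24, 48 and 72 h, and in rps25∆ it was 4.13%, 4.37% and 3.63%. The genes of ranks 10 and 17 were picked for these sums after their values were seen.

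The gene of rank 17 (1052 bases) had 2069 and 1984 TMM-scaled CPM at 24 h, 2308 and 2450 at 48 h, and 18965 and 19585 at 72 h in the rps7∆ mRNA replicates. In rps25∆ mRNA it had 3158 and 2535 at 24 h, 24136 and 26896 at 48 h, and 3187 and 2883 at 72 h. In wt mRNA it had 4274 and 4197 at 24 h, 3088 and 3146 at 48 h, and 1904 and 1619 at 72 h. Its high groups did not overlap any other mRNA group, with log2 fold changes of 3.25 ± 0.17 (SE) at 72 h over 24 h in rps7∆ and 3.16 ± 0.17 at 48 h over 24 h in rps25∆. In rpl38∆ it was lower at 72 h (-0.71 ± 0.16), and in rpl9a∆ and rps25∆ its values at 72 h over 24 h were 0.15 ± 0.16 and 0.09 ± 0.16.

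The gene of rank 10 (1577 bases) gave the largest gain of any member in rpl38∆ and rpl9a∆ mRNA at 72 h, 0.73 and 1.14 percentage points. Its TMM-scaled CPM in rpl9a∆ mRNA was 2601 and 3125 at 24 h, 2405 and 3717 at 48 h, and 13646 and 14260 at 72 h, and in wt mRNA 2459 and 2522 at 24 h, 2520 and 2461 at 48 h, and 972 and 983 at 72 h. Its log2 fold change at 72 h over 24 h for rpl38∆ was 1.66 ± 0.16, for rpl9a∆ 2.29 ± 0.16, for rps7∆ 1.24 ± 0.15 and for rps25∆ -0.48 ± 0.15 (SE). In wt RNC-mRNA it was -2.05 ± 0.55. The gene that rose in 3 deletants was thus lower in rps25∆ and in the ribosome-bound pool of wt.

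The gene of rank 1 (2519 bases), the steepest fall in wt, fell in 3 deletants and rose in rpl9a∆. In mRNA its log2 fold change at 72 h over 24 h was -2.43 ± 0.20 in rpl38∆, -4.54 ± 0.22 in rps7∆, -5.78 ± 0.24 in rps25∆ and 2.50 ± 0.21 in rpl9a∆ (SE). In rpl9a∆ mRNA it had 53.9 and 43.7 TMM-scaled CPM at 24 h, 3591 and 2674 at 48 h, and 301 and 259 at 72 h, and in wt mRNA 1181 and 674 at 24 h, 140 and 118 at 48 h, and 68.8 and 77.0 at 72 h. The low point of rpl9a∆ was thus at 24 h, and its 48 h replicates, which stood apart in most genes, were both high here. In RNC-mRNA of rpl9a∆ the change was 5.27 ± 0.75, and 3.80 without the 5 rpl9a∆ libraries, where replicate 1 stood alone at 72 h. The gene of rank 2 (1661 bases) also rose in rpl9a∆ mRNA (0.71 ± 0.12) and fell in rps7∆ (-2.83 ± 0.12), rps25∆ (-1.84 ± 0.12) and rpl38∆ (-0.82 ± 0.12).

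**Figure D4:**
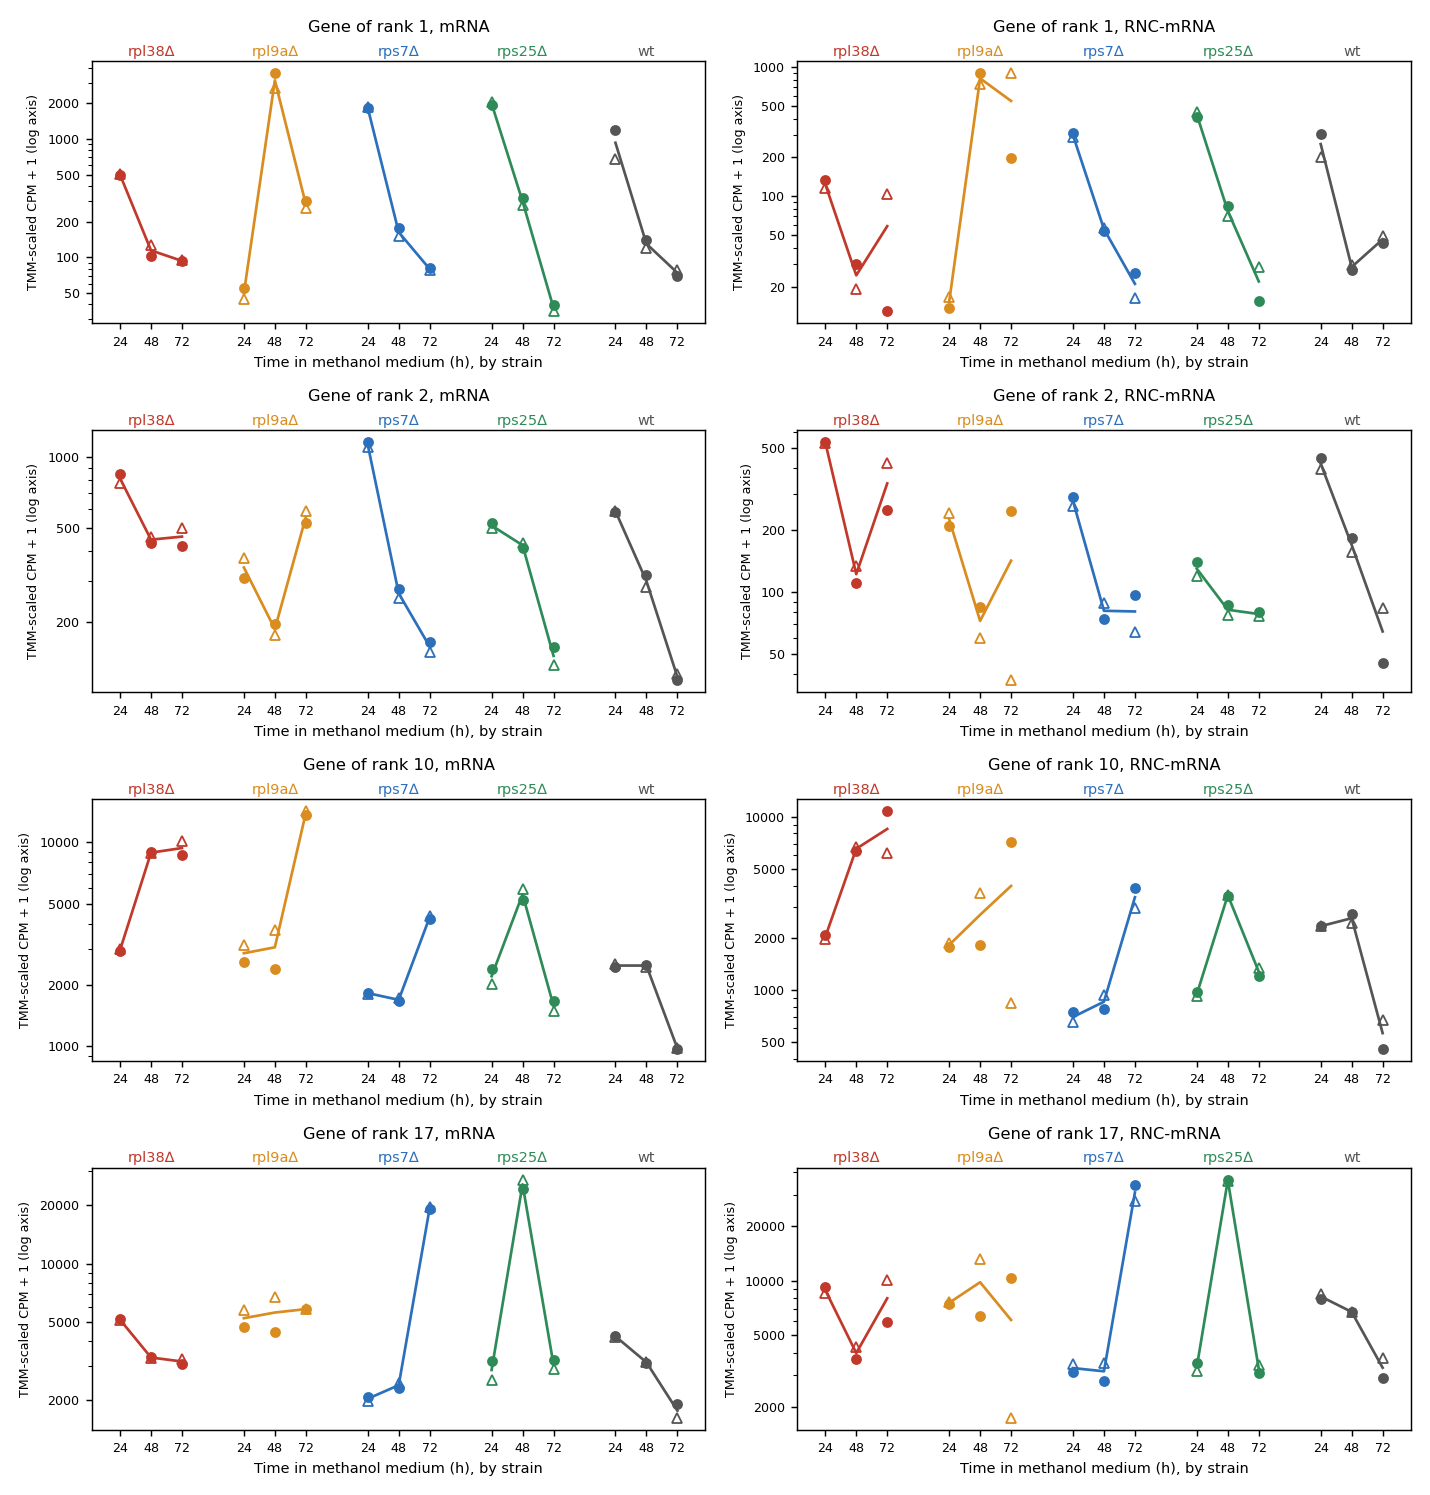
TMM-scaled CPM with 1 added (log axis) of the genes of ranks 1, 2, 10 and 17 in each library, in mRNA (left) and RNC-mRNA (right), by strain and time. Symbols are the 2 replicates and lines their mean. Rank 1 is high in rpl9a∆ mRNA at 48 h (3591 and 2674) where other strains have fallen, and rank 17 is high in rps7∆ at 72 h (18965 and 19585 in mRNA) and in rps25∆ at 48 h (24136 and 26896).

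By ID 5 members are named, namely the 2 with the lowest mean change over the 4 deletants among those lower in all 4, the 2 with the highest mean change among those higher in at least 1, and the 1 chaperone gene. Pipas_FragB_0067 (rank 8, 4250 bases) fell in all 4 deletants. In rpl38∆ mRNA it had 6759 and 7183 TMM-scaled CPM at 24 h, 946 and 878 at 48 h, and 364 and 294 at 72 h. In rps7∆ mRNA it had 725 and 627 at 24 h, 230 and 222 at 48 h, and 146 and 153 at 72 h, and in wt mRNA 3754 and 2743 at 24 h, 1882 and 1749 at 48 h, and 1118 and 1089 at 72 h. The 24 h level was thus far lower in rps7∆ than in rpl38∆, and both fell from there. The log2 fold change at 72 h over 24 h was -4.40 ± 0.21 in rpl38∆ (adjusted p = 5.8e-13), -3.22 ± 0.20 in rpl9a∆ (1.3e-11), -2.18 ± 0.20 in rps7∆ (5.6e-09) and -0.65 ± 0.19 in rps25∆ (0.0077), SE in each case. In RNC-mRNA it was -2.09 ± 0.40 in rpl38∆, -2.47 ± 0.41 in rps7∆ and -1.64 ± 0.40 in rps25∆, all past the threshold. In rpl9a∆ it was -0.23 ± 0.38 (adjusted p = 0.66), and -0.91 without the 5 rpl9a∆ libraries, with a single replicate left at 72 h. The wt RNC-mRNA value was -0.62 ± 0.39 (adjusted p = 0.32).

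Pipas_chr2-1_0092 (rank 127, 824 bases) had few reads, and its fall was large in each deletant. In rps25∆ mRNA it had 58.1 and 52.9 TMM-scaled CPM at 24 h, 5.07 and 2.2 at 48 h, and 1.24 and 0.646 at 72 h, the last from 4 reads in each library. In rpl38∆ mRNA it had 21.4 and 21.0 at 24 h, 8.27 and 7.84 at 48 h, and 2.53 and 1.30 at 72 h, the last from 19 and 5 reads. In wt mRNA it had 13.6 and 22.2 at 24 h, 36.6 and 43.2 at 48 h, and 9.16 and 10 at 72 h, so that wt was highest at 48 h and the deletants' means were highest at 24 h. The log2 fold change at 72 h over 24 h was -3.33 ± 0.59 in rpl38∆ (adjusted p = 4e-05), -4.13 ± 0.48 in rpl9a∆ (1.1e-07), -4.05 ± 0.44 in rps7∆ (8.9e-08) and -5.99 ± 0.63 in rps25∆ (1.1e-07). The change did not pass the test of a difference among strains (adjusted p = 0.16). In RNC-mRNA it was lower in all 4 deletants and in wt (-2.46 ± 0.77, adjusted p = 0.038), with 0 and 6 reads left in rps25∆ at 72 h.

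Pipas_chr3_0731 (rank 70, 1841 bases) is the 1 member on the study's list of chaperone genes. In rpl9a∆ mRNA it had 2847 and 3320 TMM-scaled CPM at 24 h, 1691 and 835 at 48 h, and 167 and 186 at 72 h. In rps25∆ mRNA it had 1234 and 1193 at 24 h, 560 and 583 at 48 h, and 805 and 746 at 72 h, and in wt mRNA 2139 and 2018 at 24 h, 1511 and 1608 at 48 h, and 1181 and 926 at 72 h. The groups at 72 and 24 h did not overlap in these strains, and the level in rpl9a∆ at 72 h was below that of wt, where it had been above at 24 h. The log2 fold change was -2.37 ± 0.21 in rpl38∆ (adjusted p = 3.9e-09), -4.13 ± 0.23 in rpl9a∆ (1.8e-12), -2.19 ± 0.21 in rps7∆ (1.4e-08) and -0.65 ± 0.20 in rps25∆ (0.012). In RNC-mRNA of rpl9a∆ the 72 h replicates had 262 and 2795 TMM-scaled CPM and the 24 h replicates 2532 and 2259. The test gave -0.65 ± 0.55 (adjusted p = 0.36). Without the 5 rpl9a∆ libraries the value was -3.19, from replicate 1 alone at 72 h. In wt RNC-mRNA the change was -0.54 ± 0.55 (adjusted p = 0.56).

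Pipas_chr4_0043 (rank 5, 1505 bases) rose in all 4 deletants while it fell in wt. In rps7∆ mRNA it had 455 and 461 TMM-scaled CPM at 24 h, 442 and 435 at 48 h, and 9990 and 10370 at 72 h. In rps25∆ mRNA it had 727 and 670 at 24 h, 7561 and 8695 at 48 h, and 1220 and 1327 at 72 h, and in wt mRNA 1066 and 1158 at 24 h, 1176 and 1082 at 48 h, and 311 and 369 at 72 h. Its high points were those of the rank 17 gene, 72 h in rps7∆ and 48 h in rps25∆. The log2 fold change at 72 h over 24 h was 1.72 ± 0.31 in rpl38∆ (adjusted p = 4.1e-05), 3.17 ± 0.32 in rpl9a∆ (1.7e-08), 4.47 ± 0.34 in rps7∆ (3.7e-10) and 0.87 ± 0.30 in rps25∆ (0.022). In RNC-mRNA of wt the replicates had 88.2 and 113 TMM-scaled CPM at 72 h and 1800 and 1942 at 24 h, a log2 fold change of -4.22 ± 0.71 (adjusted p = 0.00049). In RNC-mRNA of rps7∆ they had 15992 and 10926 at 72 h and 273 and 262 at 24 h, a log2 fold change of 5.65 ± 0.76. The translation ratio changed in rps25∆ (2.93, adjusted p = 0.016) and did not pass the test in the other 3.

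Pipas_chr1-4_0338 (rank 111, 1649 bases) rose in 3 deletants. In rpl38∆ mRNA it had 254 and 239 TMM-scaled CPM at 24 h, 2360 and 2289 at 48 h, and 1540 and 1599 at 72 h. In rps25∆ mRNA it had 141 and 137 at 24 h, 920 and 1105 at 48 h, and 152 and 145 at 72 h, and in wt mRNA 634 and 585 at 24 h, 419 and 387 at 48 h, and 332 and 330 at 72 h. All 4 deletants were below wt at 24 h, since rpl9a∆ had 166 and 161 and rps7∆ 124 and 123. This is a description only. The rule favours a high wt value at 24 h, and choosing the gene by its rise favours low values of the deletants there. The log2 fold change at 72 h over 24 h was 2.67 ± 0.46 in rpl38∆ (adjusted p = 2.8e-05), 3.25 ± 0.47 in rpl9a∆ (2.6e-06), 3.47 ± 0.47 in rps7∆ (2.1e-06) and 0.10 ± 0.44 in rps25∆ (0.88). In rps25∆ the gene was higher at 48 h than at 24 h (2.87, adjusted p = 4.9e-05). The 2 rpl9a∆ mRNA replicates at 48 h had 303 and 2235 TMM-scaled CPM and thus lay far apart. In wt RNC-mRNA the change was -1.65 ± 0.66 (adjusted p = 0.10).

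**Figure D5:**
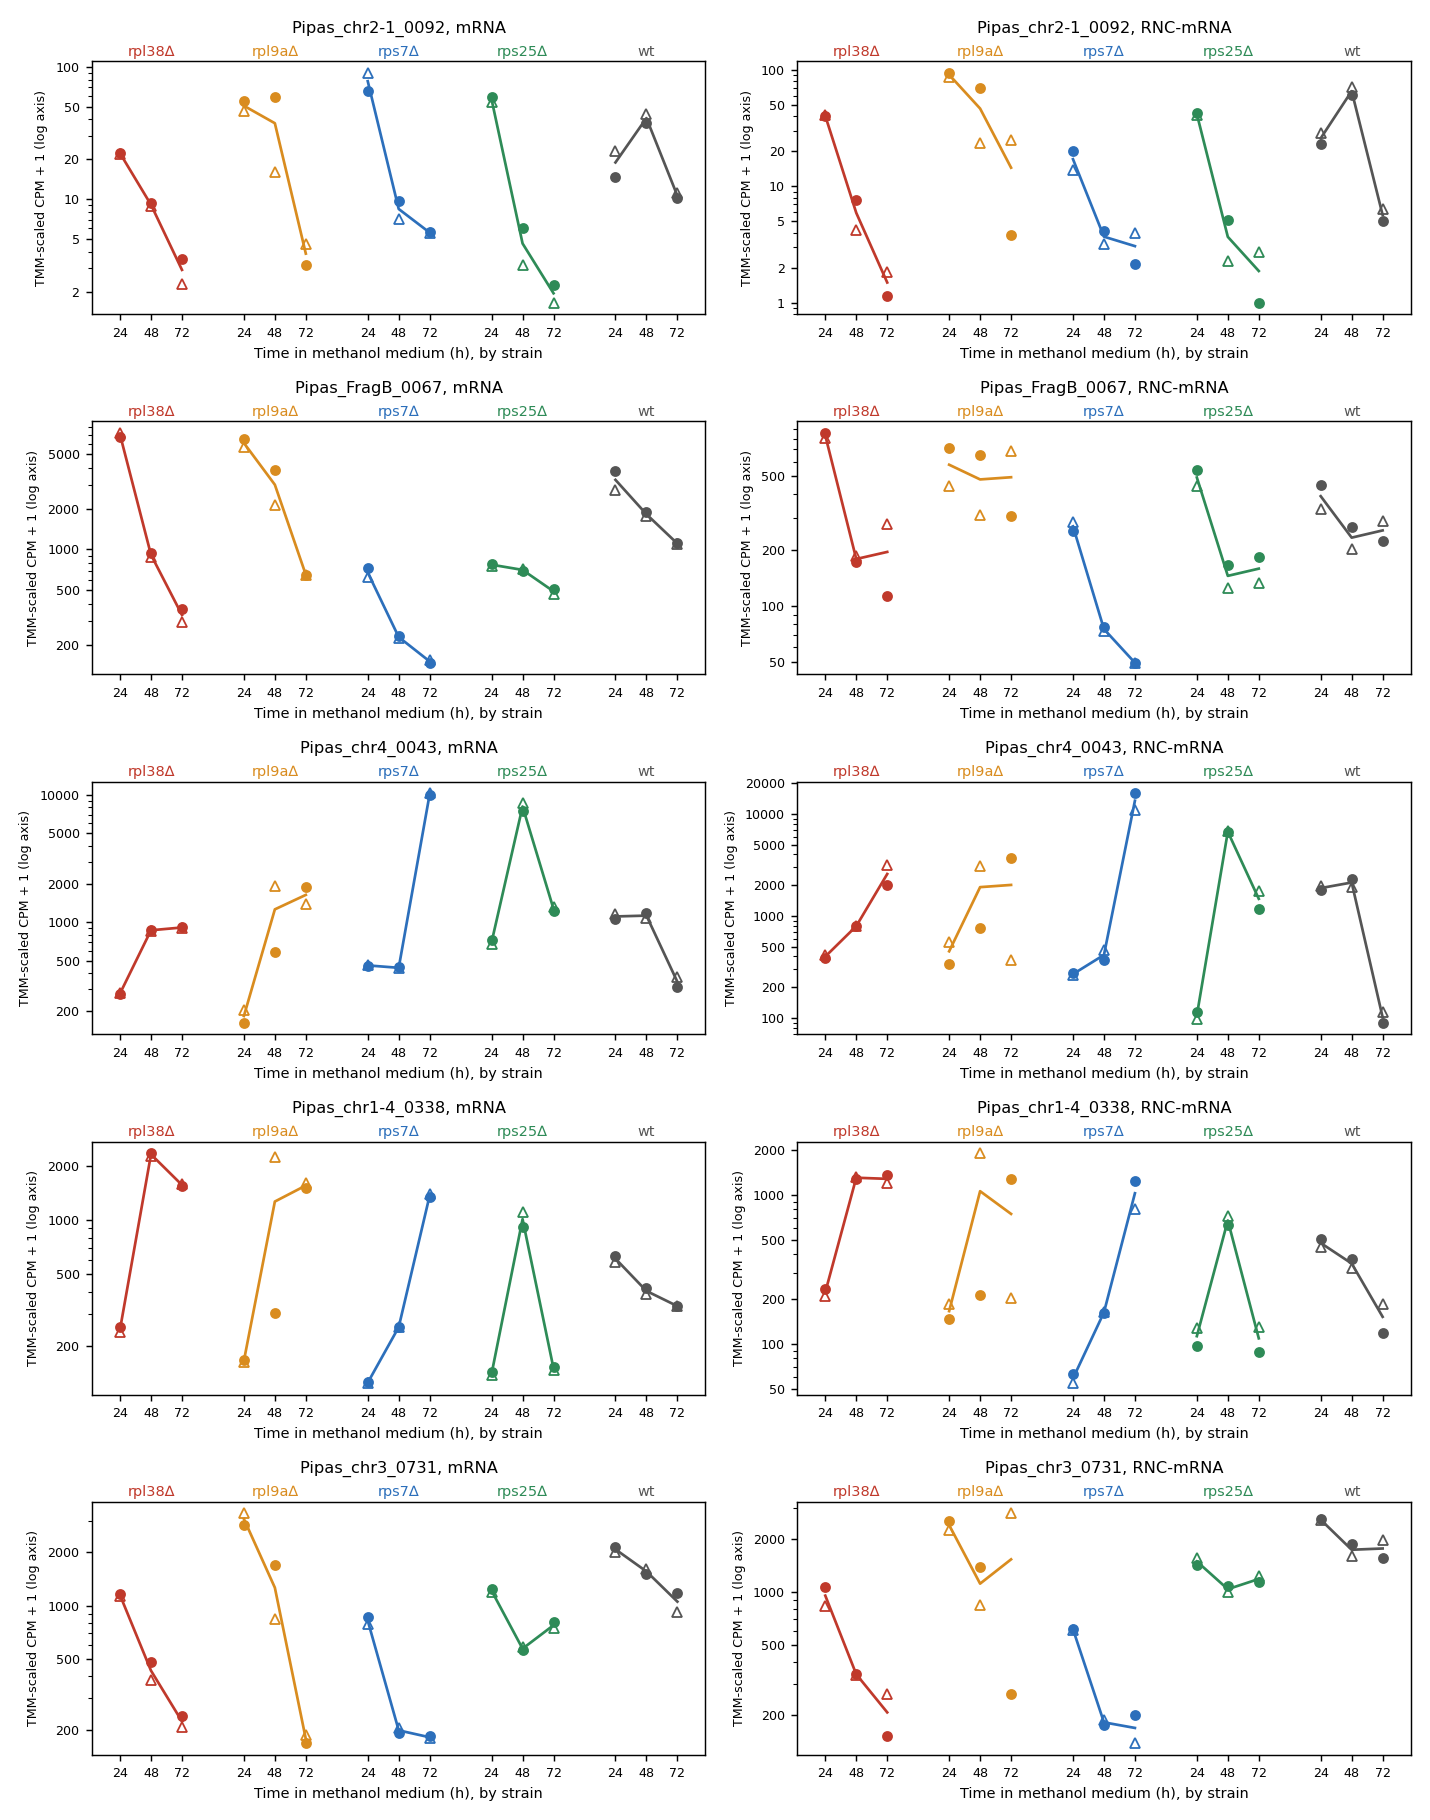
TMM-scaled CPM with 1 added (log axis) of the 5 named genes in each library, in mRNA (left) and RNC-mRNA (right), by strain and time. Symbols are the 2 replicates and lines their mean. Pipas_chr4_0043 reaches 9990 and 10370 in rps7∆ mRNA at 72 h, against 311 and 369 in wt, where the rule favours low values. The 2 rpl9a∆ replicates part at 48 h in both assays and at 72 h in RNC-mRNA.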

How the data were processed

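Per the labels and the study's methods, polyA+ mRNA and RNC-mRNA of 5 strains at 3 times were sequenced with 2 replicates. The authors deposited for each of 60 libraries a raw read count of each host gene, and an RPKM, scaled by the listed maximal gene length and the total host reads, which was recomputed (largest difference 0.000117%) but not tested. Base calling with bcl2fastq 2.17 is in the submitters' processing notes. For the aligner, the counter, the strand setting and the build, nothing is given in the sources used here. Reads of paralogs and overlapping genes are therefore uncertain. A separate Phy table was not used here. No column was set aside (0 per-sample columns left out).

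The members and lists were chosen with earlier results of these data known. Counts were fitted with edgeR 4.0.16 (R 4.3.3) by quasi-likelihood with TMM scaling and 1 mean per group, over 30 mRNA libraries (5228 genes), 30 RNC-mRNA libraries (5209 genes) and all 60 for the translation ratio (5240 genes). Genes needed more than 10 reads in at least 2 libraries, and all 150 members passed. P-values were adjusted by Benjamini-Hochberg over all genes, with a threshold of 0.05. The code was tested on simulated data. Depth, given in the report as host reads, limits genes with few reads. Alternatives were DESeq2 1.42.0 size factors and its test, library totals alone, other filters, a replicate block, leaving out libraries, other member choices and fits of 1 strain alone.

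The rule for named genes was the 2 lowest mean log2 fold changes over the 4 deletants among members lower in all 4, the 2 highest among members higher in at least 1, and members on the chaperone list. Of 5319 IDs, 0 matched the reference gene table (assembly ASM170810v1, 5305 genes), so no names, sequences or promoter motifs were used.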

Additional observations from a re-analysis of the deposited data

Results flagged for a closer look

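The mRNA change from 24 to 72 h differed among the 4 deletion strains for 143 of the 150 genes by the test of the difference itself (edgeR quasi-likelihood, adjusted over all genes), where 83.0% of all genes tested did. Among the named genes this was so for Pipas_FragB_0067 (adjusted p = 1.5e-09), whose fall spanned -4.40 in rpl38∆ to -0.65 in rps25∆ on the log2 scale. It was so for Pipas_chr3_0731 (adjusted p = 1.9e-08), from -4.13 in rpl9a∆ to -0.65 in rps25∆. Pipas_chr4_0043 (adjusted p = 9e-07) rose by 0.87 in rps25∆ and by 4.47 in rps7∆. Pipas_chr1-4_0338 (adjusted p = 0.00021) had 0.10 in rps25∆ and 3.47 in rps7∆.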

How the results depend on the processing

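Of 22 main counts (members lower, or changed in translation ratio or among strains, in each comparison), every one stayed within 1.5 times of its value under DESeq2's size factors, DESeq2's test, either other filter, members chosen without replicate 2 of wt or a floor of 50 CPM. Among the counts by direction, the members lower in translation ratio moved in rps7∆ (1, against 2 with DESeq2's size factors and 3 with its test) and in rpl38∆ (3, against 5 with DESeq2's test), and those higher at 48 h in rps7∆ were 9, against 15 with members chosen without replicate 2. Members chosen without replicate 1 of wt moved 1 of the 22, the translation ratio in rpl38∆ (10). The 3 other member choices shared 122, 121 and 117 of the 150 genes. Library totals alone moved 7: lower at 72 h in rps7∆ mRNA 30 and RNC-mRNA 10, translation ratio in rps7∆ 13, lower than wt at 48 h in rps7∆ 35, and lower at 48 h in rpl38∆ 58, rpl9a∆ 29 and rps7∆ 21. With it all genes shifted together, so the members kept their distance below the median gene, while their own medians changed sign in rps7∆ to 0.11 (mRNA) and 0.32 (RNC-mRNA) at 72 h, to 0.34 at 48 h over 24 h and to 0.32 over wt at 48 h, and that of rps25∆ RNC-mRNA to 0.034. Fits of 1 strain alone moved 8: lower at 72 h in mRNA 77 (rps7∆) and 52 (rps25∆), in RNC-mRNA 103 (wt), 2 (rpl9a∆), 76 (rps7∆) and 42 (rps25∆), and lower at 48 h 21 (rpl9a∆) and 75 (rps25∆). Without the 5 rpl9a∆ libraries 11 of 20 counts moved. Among them were the rpl9a∆ counts in RNC-mRNA and translation ratio, which then rested on replicate 1 alone at 72 h. Lower at 72 h in mRNA were then 78 (rps7∆) and 50 (rps25∆), and in RNC-mRNA 104 (wt), 71 (rps7∆) and 31 (rps25∆). The translation ratio changed for 55 (rpl38∆), 36 (rps7∆) and 31 (rps25∆), and lower at 48 h in rps25∆ were 83. The spread between replicates moved with that alternative (13.5% against 20.9% in RNC-mRNA), and its part in the counts was not tested separately.

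Leaving out 1 library at a time, the members lower at 72 h in mRNA were 104 to 107 (rpl38∆), 105 to 106 (rpl9a∆), 40 to 42 (rps7∆) and 17 to 19 (rps25∆), and in RNC-mRNA 47 to 71 (rpl38∆), 15 to 97 (rpl9a∆), 15 to 26 (rps7∆), 8 to 10 (rps25∆) and 18 to 20 (wt). Changed translation ratios were 8 to 21, 22 to 129, 2 to 6 and 4 to 7 in rpl38∆, rpl9a∆, rps7∆ and rps25∆. Lower at 48 h were 66 to 73, 39 to 113, 38 to 43 and 15 to 24, and lower than wt at 48 h 36 to 41, 18 to 78, 56 to 57 and 29 to 32, in the same order of strains. The lone library is assumed to vary like the others, and shares of all genes were not counted in these fits. The test of a difference among strains gave 138 to 142. For single genes in RNC-mRNA, values that changed sign were Pipas_FragB_0067 in rpl9a∆ (0.23 with library totals, 0.15 without replicate 1 at 24 h, 0.24 without replicate 1 at 72 h, and -0.91 without replicate 2 there), Pipas_chr4_0043 (-0.28) and Pipas_chr3_0731 (0.22) in rpl9a∆ without replicate 1 at 72 h (3.03 and -3.19 without replicate 2), and Pipas_chr1-4_0338 in rps25∆ (0.065 with library totals, 0.17 without replicate 2 at 24 h, 0.20 without replicate 1 at 72 h, and -0.35 without replicate 2 there).

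With the replicate number as a block, the members lower in wt RNC-mRNA were 23, the changed translation ratios were 25 in rpl38∆ and 9 in rps7∆, and the other 19 counts stayed within 1.5 times. The numbers are not shown to pair cultures: deviations of same-numbered mRNA and RNC-mRNA libraries correlated above 0.1 in 4 of 15 pairs (median 0.05).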
